A study of Mus musculus with 11 samples.

Results

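The natriuretic peptide and cyclic GMP pathway was followed through 10 genes, read by name in the deposited tables: the ligand genes Nppa, Nppb and Nppc, the receptor genes Npr1, Npr2 and Npr3, and 4 genes of cyclic GMP synthesis, action and breakdown, Gucy1a1, Gucy1b1, Prkg1 and Pde5a. They are 10 of the 48709 mouse genes in the count table, and 8 of them are among the 19629 genes of the authors' CPM table. RNA was sequenced in bulk from the aortic arch of mice at postnatal day 11. In 6 libraries (Het 1 to 6) the mice carried 1 Tgfbr2 allele with the G357W substitution (Tgfbr2-G357W/+), as a model of Loeys-Dietz syndrome, a connective tissue disorder with aortic aneurysms. Tgfbr2 is the gene of a receptor for TGF-beta. The other 5 libraries (WT 1 to 5) came from littermates with wild-type Tgfbr2. The labels describe the material as smooth muscle and endothelial, and give no sex, strain or treatment. As the series text counts as many mice as there are libraries, each library was taken as 1 animal.

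Natriuretic peptides are signalling peptides that lower intracellular calcium and relax smooth muscle by raising cyclic GMP. ANP and BNP, the products of Nppa and Nppb, come mainly from heart muscle and act on the receptor cyclase NPR-A, encoded by Npr1. CNP, the product of Nppc, is released by endothelial and other cells and acts on NPR-B, encoded by Npr2. NPR-C, encoded by Npr3, lacks a cyclase domain, binds all of these peptides and clears them. Nitric oxide raises the same second messenger through a soluble cyclase made of an alpha and a beta subunit (Gucy1a1 and Gucy1b1). Cyclic GMP then activates protein kinase G (Prkg1) and is broken down by phosphodiesterases, of which PDE5 (Pde5a) is specific for it.

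Of these 10 genes, Nppc was lower and Npr3 higher in Het than in WT, the other 6 that could be tested did not pass the test, and the heart peptide genes Nppa and Nppb were at the edge of detection. Sex was unevenly spread over the groups, and neither Nppc nor Npr3 passed in the fits that took sex into account, given below. In those fits most other genes lost their calls as well. Over all genes, 742 were called in the fit of all libraries and 123 with a sex score as a covariate. In the libraries with counts of Xist, transcribed in female cells, 34 were called. The promoters of the Nppc and Npr3 genes are shown because these are the members called in the fit of all libraries. The windows run from 250 bases before to 50 bases after the RefSeq gene start, on the strand of the gene, in GRCm38.p6. Capitals mark the letters TATAAA of the core promoter box of that name. They also mark ATTGG, which is CCAAT read on the opposite strand. The last motif in capitals is GGGCGG, bound by Sp factors.
Nppc, chr1:86670524-86670823, minus strand: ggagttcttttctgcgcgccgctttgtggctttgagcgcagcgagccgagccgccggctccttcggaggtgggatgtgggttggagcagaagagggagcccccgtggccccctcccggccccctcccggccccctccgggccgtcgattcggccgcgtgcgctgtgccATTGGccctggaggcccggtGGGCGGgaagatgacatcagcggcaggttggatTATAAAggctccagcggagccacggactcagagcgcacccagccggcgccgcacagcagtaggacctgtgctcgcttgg
Npr3, chr15:11907322-11907621, minus strand: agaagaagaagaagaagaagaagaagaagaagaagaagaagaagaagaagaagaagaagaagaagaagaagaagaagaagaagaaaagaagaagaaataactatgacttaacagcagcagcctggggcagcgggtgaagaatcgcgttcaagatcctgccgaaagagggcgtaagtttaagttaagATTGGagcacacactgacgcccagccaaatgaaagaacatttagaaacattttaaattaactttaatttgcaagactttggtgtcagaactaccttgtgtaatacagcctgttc
The Nppc window was 69.3% G and C, against a median of 52.7% in the 32851 RefSeq promoters of the same length, and it holds TATAAA 29 bases before the start. The Npr3 window was 39.0% G and C, opens with a run of short purine repeats, and holds ATTGG but neither TATAAA nor GGGCGG. The RefSeq start of Npr3 lies upstream of the start of the gene in GENCODE M21.

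TATAAA, searched on both strands, was found in the windows of the 3 ligand genes and in none of the windows of the other 7 members. It occurs in 13.6% of all the promoters. CCAAT occurs in 37.4% of them, GGGCGG in 35.7% and CAGAC, the core of the Smad-binding element, in 49.6%. CAGAC was not found in the Nppc or Npr3 window, and TGACG, a cyclic AMP response half-site that 20.8% of the promoters hold, begins 50 bases before the start of Npr3. The stretches from 60 bases before to 20 bases after the RefSeq start of the other ligand genes are shown for their TATAAA. It begins 31 bases before that start in Nppb and 9 bases before it in Nppa. The start of Nppb in GENCODE M21, 147985788, lies upstream of the printed stretch.
Nppb, chr4:147985840-147985919, plus strand: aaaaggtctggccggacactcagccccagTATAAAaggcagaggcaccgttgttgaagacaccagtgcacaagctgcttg
Nppa, chr4:148000662-148000741, plus strand: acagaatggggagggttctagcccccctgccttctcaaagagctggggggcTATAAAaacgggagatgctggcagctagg

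Total counts per library were 13162449 to 18883711 in Het and 13113467 to 19327935 in WT. Levels are given as CPM, counts per unit of library total, after scaling by trimmed mean of M values (TMM). A gene without counts could still have had up to 3 counts, or 0.155 to 0.229 CPM, depending on the library, and intervals and limits cover counting error only. The labelled cell types were present. The summed level of 8 smooth muscle markers was 30598 to 41656 CPM in Het and 33729 to 38354 CPM in WT, and that of 12 endothelial markers was 497 to 823 CPM in Het and 533 to 687 CPM in WT. All 12 endothelial markers had counts, and their sums overlapped between the groups. Of the 8 smooth muscle markers 1 was called, Cnn1, lower in Het by edgeR, DESeq2 and voom. Cnn1 is also in a pathway list below. Xist, transcribed in female cells, had at least 100 counts in Het 1, Het 2 and all 5 WT libraries, whereas Het 3 to 6 had Y-linked counts. Sex and genotype were thus partly confounded, and the tests of single genes were repeated with a sex score as a covariate, and all tests in the 7 Xist-positive libraries alone. On the first principal component of log2 CPM (24.1% of the variance) the Het libraries lay at -29.1 to -14.7, WT 3 to 5 at 2.15 to 16.4, and WT 1 and WT 2 apart from them at 49.7 and 47.1, so results are also given without WT 1 and WT 2. A point substitution in Tgfbr2 cannot be checked in gene counts.

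Across all genes, edgeR's quasi-likelihood test called 742 of 14757 genes at an adjusted p under 0.05, or 5.03%, with 391 higher and 351 lower in Het. Of the 10 members 8 were tested, 1 was called higher and 1 lower, and their median log2 fold change was 0.07, against 0.00 over all tested genes. In 4.61% of the tested genes every Het library lay above or below every WT library, and among the members this held for Nppc and Npr3, 2 of 8. DESeq2 and limma voom also called these members and no other.

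**Figure D1:**
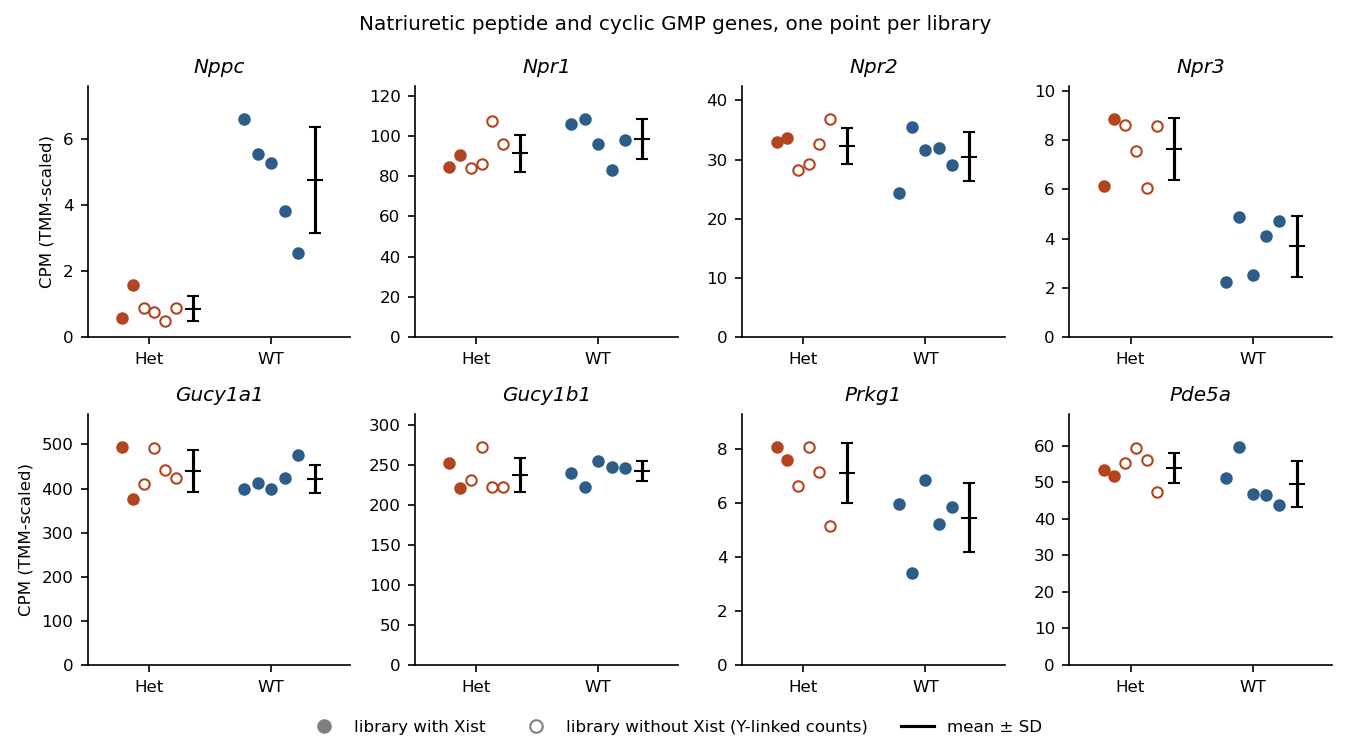
CPM (TMM-scaled) of the 8 tested members, Het left of WT, 1 point per library, with the mean and SD as bars; filled points are libraries with Xist and open points are those with Y-linked counts instead. The Het libraries lie below all WT libraries for Nppc (0.488 to 1.59 against 2.54 to 6.62 CPM) and above them for Npr3 (6.07 to 8.86 against 2.25 to 4.89 CPM), and the groups overlap for the other 6 genes.

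Of the ligand genes, Nppc alone had more than 1 count in any library. Nppc (ENSMUSG00000026241, chromosome 1, 86666291 to 86670571, minus strand, GRCm38), the gene of C-type natriuretic peptide, had between 0.488 and 1.59 CPM in Het, with a median of 0.823 CPM, against 6.62, 5.56, 5.29, 3.82 and 2.54 CPM in WT 1 to 5. These levels rest on 8 to 22 counts per library in Het and 34 to 103 in WT. All 6 Het libraries lay below all 5 WT libraries. The nearest were Het 2, whose 22 counts give an exact (Clopper-Pearson) 95% interval of 0.998 to 2.41 unscaled CPM, and WT 5, whose 34 counts give 1.80 to 3.62, so these intervals overlap. The mean was 0.865 ± 0.386 CPM in Het (SD, n = 6) and 4.77 ± 1.60 CPM in WT (SD, n = 5). In edgeR's quasi-likelihood test the log2 fold change was -2.46 ± 0.33 (SE, 95% interval -3.16 to -1.76), a level 5.52-fold lower in Het, with an adjusted p of 4.12e-04. Among the 351 genes called lower, 5 had a larger fall.

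The call on Nppc held when each library was left out in turn, with log2 fold changes of -2.72 to -2.32. With the sex score as a covariate the log2 fold change was -2.12 ± 0.48 (95% interval -3.16 to -1.09, adjusted p = 0.0592), and in the 7 Xist-positive libraries it was -2.12 ± 0.51 (adjusted p = 0.153), so the adjusted p missed the threshold in both. Without WT 1 and WT 2, which had the highest levels of Nppc, the log2 fold change was -2.17 ± 0.38 (adjusted p = 0.0051). The Xist-positive Het libraries had 0.591 and 1.59 CPM, and Het 3 to 6 had 0.488 to 0.882 CPM.

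In bulk RNA, fewer cells of a type and less RNA per cell cannot be told apart, and a ratio to marker genes does not separate them. Nppc was set against the endothelial markers of the same library to describe its level relative to them. The log2 ratio of Nppc to their summed CPM was between -10.01 and -9.02 in Het, with a median of -9.56, against -6.36, -6.58, -7.02, -7.49 and -8.02 in WT 1 to 5. The groups did not overlap. The difference, Het minus WT, was -2.42, with an exact two-sided permutation p of 0.0022, the smallest that the 462 splits allow. Without WT 1 and WT 2 the difference was -2.01 (exact permutation p = 0.0119, also the smallest possible). The difference is close to the log2 fold change of Nppc itself, -2.46, and is not a separate result. The summed endothelial markers averaged 600 CPM in Het and 623 CPM in WT, whereas their median log2 fold change was 0.22. None of the 12 endothelial markers passed edgeR's test, although 4 had an unadjusted p under 0.05, and DESeq2 and voom called 1 each. The summed level of 10 skeletal muscle markers was 8.88 to 17.2 CPM in Het and 21.3 to 43.4 CPM in WT, with Pvalb at 0 in all libraries and 2 of 4 tested markers called lower. That of 10 chondrocyte markers was 11.1 to 14.2 CPM in Het and 14.0 to 21.9 CPM in WT, with Matn1 at 0 in all libraries and Sox9 the 1 of 5 tested markers called, lower in Het. The summed level of 6 erythroid markers was 379 to 909 CPM in Het and 670 to 1571 CPM in WT, with a median log2 fold change of -0.73, 5 of 6 at an unadjusted p under 0.05, none called by edgeR, 2 by DESeq2 and 1 by voom. That of 8 adventitial fibroblast markers was 1483 to 2412 CPM in Het and 1447 to 2261 CPM in WT, with 1 marker, Pi16, called lower. The sums of the marker lists of fat, Schwann cells and neurons, macrophages, T cells and mesothelium overlapped between the groups, with no marker called by edgeR, DESeq2 or voom and 1 (of macrophages) at an unadjusted p under 0.05. The part of skeletal muscle, cartilage and blood in the levels of Nppc and Npr3 was not tested.

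Nppa (ENSMUSG00000041616, chromosome 4, 148000722 to 148002079, plus strand) and Nppb (ENSMUSG00000029019, chromosome 4, 147985788 to 147987205, plus strand), which encode the heart peptides ANP and BNP, were almost without counts. Nppa had 1 count in each of 2 Het libraries and 0 in the other 4, against 0 in all 5 WT libraries. Nppb had 1 count in 1 Het library, and 0 in the others and in all WT libraries. A count of 0 over the 5 WT libraries allows up to 0.0394 CPM. No such limit is given for Het, where neither gene was at 0 in all libraries. Both genes were below the filter and were not tested, and no fold is given. The summed level of 10 cardiomyocyte markers was 61.6 to 94.6 CPM in Het and 70.5 to 95.7 CPM in WT. Most of it was the myosin light chain Myl4, at 54.3 CPM in Het and 46.7 CPM in WT on average. Of the 7 cardiomyocyte markers tested, 2 had an unadjusted p under 0.05 in edgeR's test and 0 were called by edgeR, DESeq2 or voom. Their median log2 fold change was -0.26, so the sum does not describe each marker.

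The receptor genes did not move together. Npr3 (ENSMUSG00000022206, chromosome 15, 11839896 to 11907287, minus strand), the gene of the clearance receptor, had between 6.07 and 8.86 CPM in Het, with a median of 8.05 CPM, against 2.25, 4.89, 2.52, 4.12 and 4.71 CPM in WT 1 to 5. These levels rest on 83 to 127 counts per library in Het and 34 to 73 in WT. Every Het library lay above every WT library, and the gap between the lowest Het and the highest WT library was smaller than the SD of either group. The mean was 7.63 ± 1.27 CPM in Het (SD, n = 6) and 3.70 ± 1.24 CPM in WT (SD, n = 5). The log2 fold change was 1.05 ± 0.23 (SE, 95% interval 0.56 to 1.54), a level 2.07-fold higher in Het, with an adjusted p of 0.0142 in edgeR's quasi-likelihood test. It ranked 92nd by size among the 391 genes called higher.

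Leaving out each library in turn gave log2 fold changes of Npr3 between 0.92 and 1.17, all past the threshold. With the sex score as a covariate the log2 fold change was 1.04 ± 0.31 (95% interval 0.38 to 1.70, adjusted p = 0.177), and in the Xist-positive libraries it was 1.03 ± 0.35 (95% interval 0.26 to 1.80, adjusted p = 0.391). The size of the difference was close to that in all libraries, but neither p passed. Without WT 1 and WT 2 it was 1.02 ± 0.24 (adjusted p = 0.0344). The Xist-positive Het libraries had 6.13 and 8.86 CPM, and Het 3 to 6 had 6.07 to 8.60 CPM.

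Npr1 (ENSMUSG00000027931, chromosome 3, 90450591 to 90465866, minus strand), the receptor gene for ANP and BNP, had between 83.9 and 107 CPM in Het, with a median of 88.3 CPM, against 106, 108, 95.7, 83.2 and 98.1 CPM in WT 1 to 5. Npr2 (ENSMUSG00000028469, chromosome 4, 43631935 to 43651244, plus strand), the receptor gene for CNP, had between 28.3 and 36.9 CPM in Het, with a median of 32.8 CPM, against 24.4, 35.5, 31.6, 31.9 and 29.1 CPM in WT. The groups overlapped for both genes. The log2 fold change was -0.10 ± 0.09 for Npr1 (95% interval -0.30 to 0.09, adjusted p = 0.592) and 0.08 ± 0.11 for Npr2 (95% interval -0.15 to 0.32, adjusted p = 0.750). Each overlaps an antisense gene that unstranded reads cannot separate from it, Gm16048 with 29 counts over all libraries against 15589 for Npr1, and Gm12473 with 12 against 5165 for Npr2.

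Levels of different genes were compared as CPM per kilobase of exon. On this scale Npr1 averaged 19.1 ± 1.91 in Het and 20.5 ± 2.07 in WT, Npr2 averaged 6.92 ± 0.666 in Het and 6.53 ± 0.877 in WT, and Npr3 averaged 0.812 ± 0.135 in Het and 0.394 ± 0.132 in WT (SD, n = 6 and 5). Npr1 was the highest of the receptor genes in every library and Npr3 the lowest. The share of Npr3 in the summed level of the 3 receptor genes was between 2.15% and 3.73% in Het, with a median of 3.18%, against 0.869%, 1.69%, 0.991%, 1.78% and 1.84% in WT 1 to 5. The groups did not overlap, and the mean share was 3.05 ± 0.589% in Het and 1.43 ± 0.465% in WT. The difference was 1.62 percentage points, with an exact two-sided permutation p of 0.0043 over 462 splits. It was 1.51 points without WT 1 and WT 2 (exact p = 0.0119) and 1.60 in the Xist-positive libraries, 2 of them Het (exact p = 0.0476). Both p are the smallest possible in those libraries. As Npr3 is a small part of the sum and Npr1 and Npr2 did not pass, the share mostly restates the level of Npr3. The share itself depends on the length used. Undivided by length, it averaged 5.85% in Het and 2.79% in WT.

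**Figure D2:**
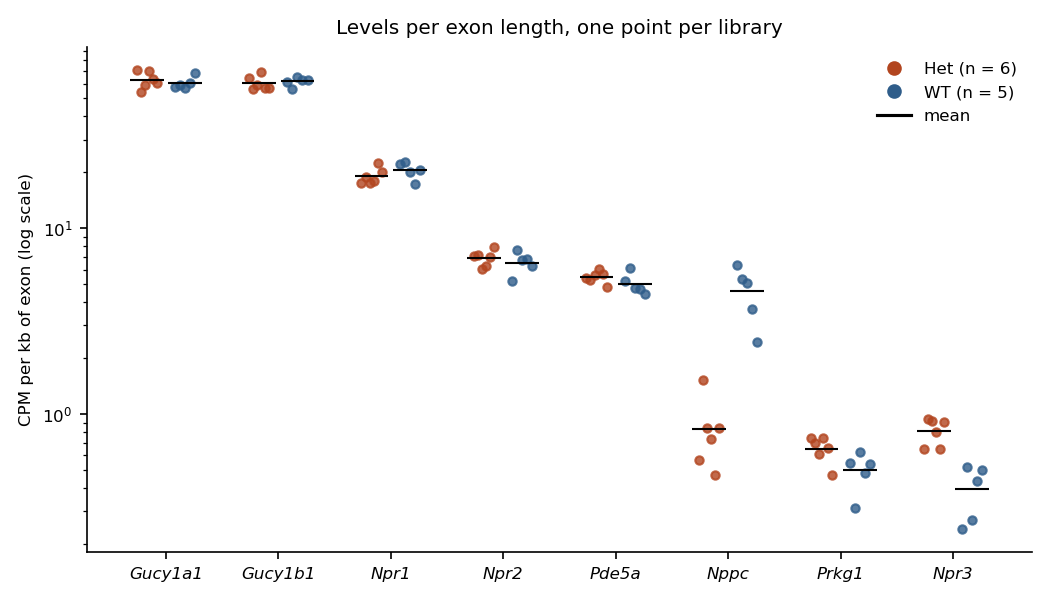
Level per length (CPM per kilobase of exon, log axis) of the 8 tested members, Het left of WT, 1 point per library with the mean as a line. The mean of Nppc is close to that of Npr3 in Het (0.830 and 0.812) and to that of Pde5a in WT (4.57 and 5.04), and the soluble cyclase subunits are the highest members in both groups.

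Among the members, the soluble cyclase genes had the highest levels per kilobase in both groups. Gucy1a1 (ENSMUSG00000033910, chromosome 3, 82092427 to 82145789, minus strand), its alpha subunit gene, had between 377 and 495 CPM in Het, with a median of 432 CPM, against 399, 413, 398, 424 and 477 CPM in WT 1 to 5. Gucy1b1 (ENSMUSG00000028005, chromosome 3, 82032006 to 82074689, minus strand), the beta subunit gene, had between 221 and 273 CPM in Het, with a median of 227 CPM, against 239, 222, 255, 248 and 246 CPM in WT. The groups overlapped for both subunits. The log2 fold changes were 0.06 ± 0.09 for Gucy1a1 (95% interval -0.13 to 0.24, adjusted p = 0.778) and -0.03 ± 0.08 for Gucy1b1 (95% interval -0.20 to 0.14, adjusted p = 0.884).

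Because the active enzyme is a dimer of both subunits, their ratio was computed in each library. The log2 ratio of Gucy1a1 to Gucy1b1 per kilobase of exon averaged 0.06 ± 0.09 in Het (SD, n = 6) and -0.03 ± 0.13 in WT (SD, n = 5). The ranges overlapped, and the difference was 0.09, with an exact two-sided permutation p of 0.203. The level of this ratio depends on the transcript chosen. With the length of the longest coding transcript it averaged 0.34 in Het and 0.25 in WT.

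Prkg1 (ENSMUSG00000052920, chromosome 19, 30564489 to 31765033, minus strand), the gene of cyclic GMP-dependent protein kinase I, had between 5.12 and 8.08 CPM in Het, with a median of 7.36 CPM, against 5.96, 3.42, 6.83, 5.22 and 5.83 CPM in WT 1 to 5. The groups overlapped. Its log2 fold change was 0.38 ± 0.20 (95% interval -0.04 to 0.79, adjusted p = 0.311). Per kilobase of its exons, the longest of the 10 members, it was the lowest tested member in Het, at 0.654 ± 0.103, and stood beside Npr3 in WT, at 0.502 ± 0.117. Pde5a (ENSMUSG00000053965, chromosome 3, 122728947 to 122859374, plus strand), the gene of the cyclic GMP-specific phosphodiesterase 5, had between 47.3 and 59.3 CPM in Het, with a median of 54.2 CPM, against 51.0, 59.8, 46.8, 46.4 and 43.7 CPM in WT. Its groups overlapped as well, with a log2 fold change of 0.12 ± 0.10 (95% interval -0.09 to 0.32, adjusted p = 0.554).

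The order of mean levels per kilobase in Het was Gucy1a1 (63.1), Gucy1b1 (60.4), Npr1 (19.1), Npr2 (6.92), Pde5a (5.47), Nppc (0.830), Npr3 (0.812) and Prkg1 (0.654). The ranges overlapped between the cyclase subunits and along the last 3 genes, and not between the other neighbours. In WT the order was Gucy1b1 (61.7), Gucy1a1 (60.6), Npr1 (20.5), Npr2 (6.53), Pde5a (5.04), Nppc (4.57), Prkg1 (0.502) and Npr3 (0.394). The ranges there overlapped between the cyclase subunits, between Npr2, Pde5a and Nppc as neighbours, and between Prkg1 and Npr3. Both orders depend on the length used. With the longest coding transcript, the mean log2 ratio of Gucy1a1 to Gucy1b1 in WT was 0.25, which puts Gucy1a1 first. The length of Prkg1 is then 6976 instead of 10861 bases and that of Npr3 6892 instead of 9389, while that of Nppc stays 1042. The order of these genes on that length was not computed.

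The rest of the pathway was read from 5 lists with 55 genes, of which 30 were tested. Of these 30, 2 were called higher and 3 lower, where 5.03% of all tested genes were called, and the median log2 fold change of the 30 was -0.05. The groups did not overlap for 2 of the 30, Pde1a and Pde3a, as for 4.61% of all tested genes. Among 15 genes of other phosphodiesterases 9 were tested, and Pde3a was called higher and Pde1a and Pde9a lower. Pde3a encodes a cyclic AMP phosphodiesterase that cyclic GMP inhibits. It had between 118 and 141 CPM in Het, with a median of 132 CPM, against 101, 107, 90.1, 87.7 and 114 CPM in WT 1 to 5. The groups did not overlap, and the log2 fold change was 0.40 ± 0.09 (adjusted p = 0.0129), past the threshold without any single library.

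Pde1a, the gene of a calcium- and calmodulin-activated phosphodiesterase that degrades both cyclic nucleotides, had between 66.3 and 82.0 CPM in Het, with a median of 72.8 CPM, against 91.2, 92.6, 91.0, 86.2 and 92.3 CPM in WT. The groups did not overlap, and the log2 fold change was -0.31 ± 0.08 (adjusted p = 0.0262). Leaving out Het 1, 2, 3 or 5 or WT 2 or 3 ended the call, with adjusted p of 0.0509 to 0.0623. Pde9a, the gene of a high-affinity cyclic GMP phosphodiesterase, had between 8.52 and 14.3 CPM in Het, with a median of 9.09 CPM, against 16.2, 13.7, 13.6, 18.6 and 15.8 CPM in WT. Het 1, the highest of its group, lay within the WT range and the other 5 lay below it. The log2 fold change was -0.62 ± 0.16 (adjusted p = 0.0318), and leaving out any of Het 2 to 6 or WT 1, 4 or 5 ended the call, with adjusted p of 0.0523 to 0.0738.

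Of 12 genes of nitric oxide synthases, other guanylyl cyclases and their peptides, only Nos2 and Nos3 had enough counts for a test. Nos2, the inducible synthase, had between 0.704 and 5.07 CPM in Het, with a median of 1.66 CPM, against 0.397, 0.134, 0.411, 0.367 and 0.822 CPM in WT 1 to 5. The ranges overlapped at WT 5. The log2 fold change was 2.31 ± 0.56 (adjusted p = 0.0251), and the call was lost with voom (adjusted p = 0.0816) and without Het 2 or 3 or WT 1, 2 or 3 (adjusted p of 0.0523 to 0.0666). Nos3, the endothelial synthase, averaged 5.31 ± 1.53 CPM in Het and 7.37 ± 1.58 CPM in WT (SD, n = 6 and 5), with a log2 fold change of -0.47 ± 0.23 (adjusted p = 0.270). Gucy2c, the intestinal receptor cyclase, and its ligand genes Guca2a and Guca2b had no counts in any library.

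Among 14 genes of the second cyclic GMP kinase, kinase substrates and partners, 12 were tested and 1 passed. This list also holds Hprt, a purine salvage enzyme outside the pathway, which did not pass. Cnn1, which encodes the actin-binding protein calponin 1 of smooth muscle, was called lower, with a log2 fold change of -0.51 ± 0.13 (adjusted p = 0.0346). It had between 1469 and 2168 CPM in Het, with a median of 1652 CPM, against 2453, 3093, 2676, 1787 and 2145 CPM in WT 1 to 5. The ranges overlapped, and leaving out any of Het 2 to 6 or WT 1 to 3 ended the call, with adjusted p of 0.0611 to 0.102. Of 6 genes that process or clear the peptides 5 were tested and none passed in edgeR, at an unadjusted p under 0.05 (0 genes), or in DESeq2 or voom. The smallest p was that of Mme, the gene of neprilysin, at a log2 fold change of 0.46 ± 0.32 (adjusted p = 0.476). Among 8 genes of export and gated channels 2 were tested, and none passed in edgeR, at an unadjusted p under 0.05 (0 genes), or in DESeq2 or voom. The smaller p was that of the exporter gene Abcc5, at -0.12 ± 0.15 (adjusted p = 0.713).

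Of the 5 calls in these lists, that on Pde3a held without any single library, as those on Nppc and Npr3 did, and the other 4 did not. The number of calls was 1 without Het 2 or Het 3, 2 without Het 5, WT 1, WT 2 or WT 3, and 3 without Het 4 or Het 6. It was 0 with the sex score as a covariate, with 6 genes at an unadjusted p under 0.05, and 0 in the Xist-positive libraries, with 5. Over all genes, 123 and 34 were called in these fits, against 742 in the fit of all libraries. With the sex score the log2 fold change was 2.54 for Nos2, -0.37 for Pde1a, 0.37 for Pde3a, -0.39 for Cnn1 and -0.31 for Pde9a, and that of Pde9a was -0.29 in the Xist-positive libraries. Without WT 1 and WT 2, Pde3a alone of the 5 remained called, and Furin, a protease that processes natriuretic peptide precursors, was called higher as well (0.54 ± 0.12, adjusted p = 0.0237).

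**Figure D3:**
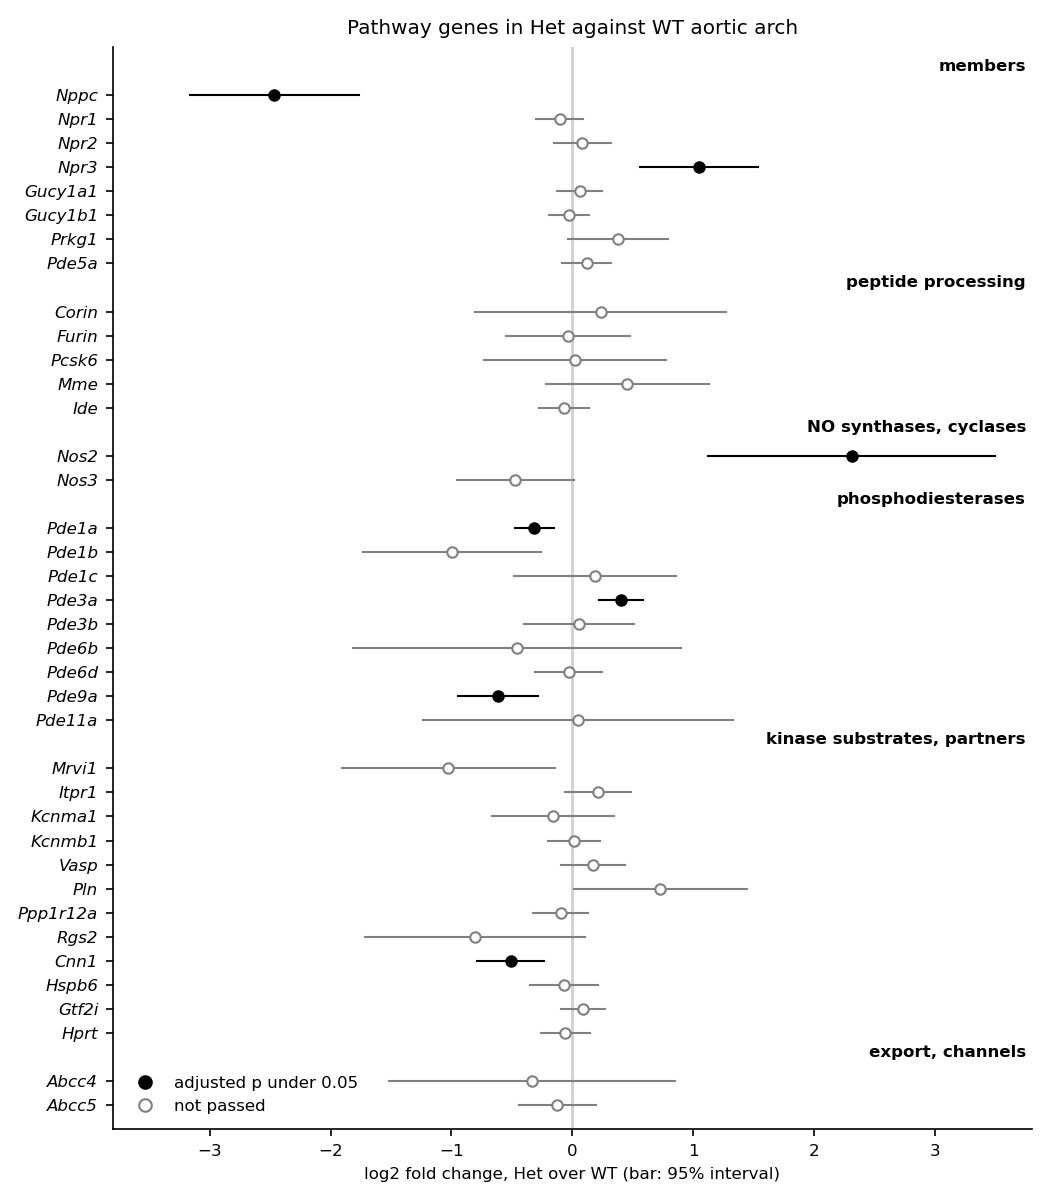
Log2 fold change (Het over WT) of the 8 tested members and the 30 tested genes of the other lists, with the 95% interval from edgeR's quasi-likelihood test; filled points passed an adjusted p under 0.05. Nppc (-2.46) lies farthest to the left and Nos2 (2.31) and Npr3 (1.05) farthest to the right, and the intervals of the 6 members that did not pass include 0.

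**Figure D4:**
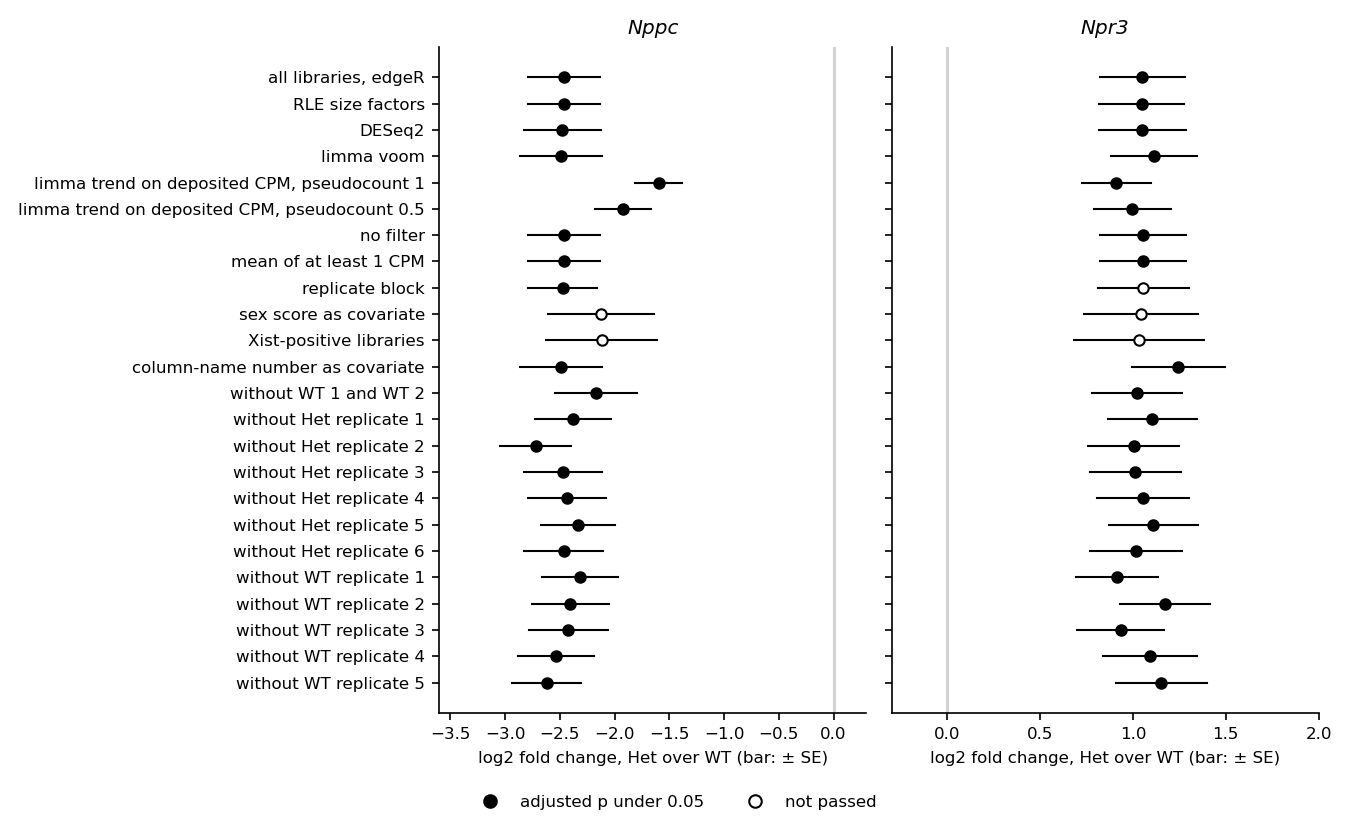
Log2 fold change (Het over WT) of Nppc and Npr3 under each setting, with its SE as a bar; filled points passed an adjusted p under 0.05 and open points did not. All values of Nppc lie between -2.72 and -1.60 and all values of Npr3 between 0.91 and 1.24, and both are open under either treatment of sex.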

How the data were processed

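Per the labels' protocols, unstranded Nextera XT libraries of total RNA were sequenced as single reads in pooled runs, which the files do not separate. Per the submitters' processing notes, the tools were STAR 2.5.2a, limma, edgeR and DESeq2 and the build was GRCm38, with no role for each, and which tool counted the reads is not given in the sources used here. Counts made by the authors are whole numbers in the deposited table, which has 48709 mouse genes after 24 spike-in and transgene rows were left out (4 to 11 counts per library). The deposited CPM table, named TMM-normalized by the authors, is a signal summing to 966683 to 1026471 per library and served for one alternative. Coordinates and exon lengths are from GENCODE M21 and promoters from RefSeq.

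Library columns were matched to samples by the group and replicate number in their names. Genes were filtered by filterByExpr (minimum count 10, total 15), scaled by TMM (factors 0.979 to 1.031) and tested in all 11 libraries with edgeR 4.0.16 in R 4.3.3 (quasi-likelihood F test with robust estimation), without covariates, adjusted by Benjamini-Hochberg over 14757 genes, with a threshold of 0.05. The SE is the log2 fold change divided by the square root of F. Ratios were tested by exact permutation over samples. For the sex score, log2 CPM of Xist was subtracted from the mean over Y-linked genes. The members, lists and tests were chosen with earlier results of these data known. Named were all members, the called genes of each list, and otherwise the gene of smallest p. Nos3, Gucy2c, Guca2a, Guca2b, Hprt, Sox9, Pi16, Myl4, Furin and Mrvi1 were chosen to be named once their values had been seen. As alternatives, the fits used DESeq2 1.42.0, limma voom and trend (3.58.1), RLE scaling, other filters, a replicate block, the sex score, and each library left out. The test was checked on simulated data.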

Additional observations from a re-analysis of the deposited data

Results flagged for a closer look

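Single libraries stood apart from their group in 2 of 32 groups of values checked, and chance alone gives about 1 in 20. For Nppc, Het 2 had 1.59 CPM, and the other 5 Het libraries had 0.488 to 0.882 CPM. Het 2 still lay below all WT libraries, and without it the log2 fold change of Nppc was -2.72. For Pde1a, WT 4 had 86.2 CPM, and the other 4 WT libraries had 91.0 to 92.6 CPM. WT 4 lay above all Het libraries, the highest of which had 82.0 CPM.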

How the results depend on the processing

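The direction of the log2 fold change of each of the 8 tested members was the same under all 23 alternatives. The 6 of them that did not pass passed in none of them. The calls on Nppc and Npr3 held under RLE scaling, DESeq2, voom, trend, both other filters, the fit without WT 1 and WT 2, a covariate for a number in the column names that the labels do not explain, and each library left out. The longest transcript as a length was chosen after seeing the data. With the sex score, the log2 fold change of Nppc was -2.12 and that of Npr3 1.04, in the Xist-positive libraries -2.12 and 1.03, none of them past the threshold, which left 0 members called in both (2 each at an unadjusted p under 0.05). The cause was not tested.

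All genes called numbered 1297 with DESeq2, 123 with the sex score, 34 in the Xist-positive libraries, 432 without WT 1 and WT 2, 415 with the number in the column names, and 458 (without WT 2) to 853 with 1 library left out. Called genes of the other pathway lists numbered 0 with the sex score, 0 in the Xist-positive libraries, 2 without WT 1 and WT 2 (Pde3a and Furin), 3 with the number in the column names, and 1 to 4 with 1 library left out.

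Replicate numbers did not pair the samples: correlations of same-numbered deviations were -0.21 to 0.06 over 5 pairs, and 1 of 5 Het libraries correlated best with its own number. A fit with the replicate block, in 10 libraries without Het 6, called 332 genes, 1 member (Nppc) and 0 other pathway genes (7 at an unadjusted p under 0.05), with Npr3 at 1.05 (adjusted p = 0.0602).

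The difference in Npr3 share was 1.48 to 3.06 points and that in the Nppc to endothelial ratio -2.66 to -2.01. Every exact permutation p of these differences was under 0.05. These p are unadjusted and cannot be set against the adjusted p of the gene tests. In the Xist-positive libraries, only 2 of them Het, the exact permutation p was 0.0476 for both, the smallest that their splits allow. The ratios were not fitted with the sex score, so whether they depend on sex was not settled. Trend on log2(CPM + 1) gave Nppc -1.60, since a pseudocount understates changes of low genes. Counts of 8 to 22 limit the precision of Nppc in Het.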

Other observations

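Mrvi1, the gene of a protein kinase G substrate at the calcium store of smooth muscle, was not called, and its WT libraries split. It had between 123 and 219 CPM in Het, with a median of 158 CPM, against 604, 547, 166, 134 and 195 CPM in WT 1 to 5. WT 1 and WT 2 were above every other library, and the other 3 WT libraries lay within the Het range. The log2 fold change was -1.02 ± 0.40 (SE, adjusted p = 0.184 in edgeR's quasi-likelihood test). Without WT 1 and WT 2 it was -0.03 ± 0.17 (adjusted p = 0.956). Furin was also highest in WT 1 and WT 2, at 314 and 285 CPM, against 126 to 150 CPM in the other WT libraries and 166 to 243 CPM in Het, and without these libraries it was called higher in Het.

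The genes whose library-to-library variation within the groups was most like that of Nppc, by Pearson's r of log2 CPM deviations from the group means over 11 libraries, were Thap7 (0.93), Cgnl1 (0.93), Acsf2 (0.92), Gtf2i (0.92) and Chst12 (0.91). Those most like Npr3 were Mthfd2 (0.95), Scml2 (0.95), Bcor (0.91), Cep72 (0.90) and Tmeff1 (0.90). They are the highest of 11980 genes compared, over libraries that share depth and scaling, and are given as a description. Among the members, r with Nppc was between -0.79 (Gucy1a1) and 0.28 (Pde5a), and r with Npr3 was between -0.60 (Prkg1) and 0.44 (Npr2). Between Nppc and Npr3 themselves r was -0.14.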
